A study of Homo sapiens with 9 samples.

Results

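The cytochrome P450 family was followed in HepG2 cells, a human liver tumour line, after 24 h with vehicle, 10 nM triiodothyronine (T3) or 10 nM GC-1, on 3 arrays a group. Its members were all probe sets whose array annotation gave exactly 1 gene symbol, that symbol being CYP followed by a digit. This chose 66 of 22215 probe sets, which stand for 43 of 11963 genes, and 12 of the 43 genes had more than 1 probe set. The choice used no measured value. T3 is the active thyroid hormone. GC-1, also known as sobetirome, is a synthetic thyronine analog without iodine that binds the beta form of the thyroid hormone receptor in preference to the alpha form. All 3 groups, vehicle included, were kept in medium with serum depleted of thyroid hormone, so the comparison is of hormone with its near absence. The labels do not say that the 3 arrays of a group came from separate cultures. The p-values therefore reflect only the variation between arrays of the same group, and that variation may be technical. It was pooled over the 3 groups and moderated with the spread of all probe sets.

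Cytochromes P450 are heme enzymes that put an oxygen atom into fats, steroids, vitamins and drugs. Most sit in the endoplasmic reticulum and take electrons from the reductase POR, and a smaller group sits in mitochondria. In liver the CYP1, CYP2 and CYP3 families clear drugs, the CYP4 family oxidises the far end of fatty acids, and CYP7A1 starts bile acid synthesis from cholesterol, a step that thyroid hormone is known to raise in rodents. HepG2 cells keep many plasma proteins of hepatocytes but make little of most drug-clearing P450s.

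Each probe set has a log2 signal on each array, and all differences below are differences of those signals. Of the 66 P450 probe sets 14 had a mean above the median of all probe sets, and 30 lay below the lower quartile of all, 5.84. Array medians lay between 7.01 and 7.06. T3 replicates 1 and 2 had wider interquartile ranges, 2.99 and 2.97, than the other 7 arrays, at 2.83 to 2.88. Hepatocyte markers were bright, with means from 12.06 to 14.44 for 9 genes measured. The 4 endothelial markers had means from 4.96 (CDH5) to 6.61 (VWF) and the 3 leukocyte and macrophage markers from 4.93 (PTPRC) to 6.35 (MARCO), none above the median of all, and 2 and 1 of them lay below that quartile. The 5 fibroblast markers ranged from 3.45 (LUM) to 9.15 (COL1A1), with COL1A1 and DCN (7.13) above the median, and 0 of these 12 markers passed with either ligand. Of 4 cholangiocyte markers KRT19 and SPP1 were lower with both ligands, by -0.25 and -0.44 with T3 and by -0.28 and -0.38 with GC-1. KRT7 and CFTR did not pass, at -0.09 and 0.01 with T3 and -0.17 and 0.11 with GC-1. Of 9 hepatocyte markers 2 passed with T3, FGB (0.69) and APOB (0.21), and 1 with GC-1, FGB (0.65). AFP differed by -0.05 and -0.03 without passing. The mean over the 4 cholangiocyte markers was 8.50 to 8.55 on the vehicle arrays, 8.26 to 8.39 with T3 and 8.31 to 8.37 with GC-1. That over the hepatocyte markers was 13.58 to 13.60, 13.72 to 13.76 and 13.70 to 13.75. The part of these shifts in the P450 differences was not tested. RNA was taken from whole cultures, so more cells making a P450 and more RNA per cell cannot be told apart.

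P450 changes went 1 way. With T3, 11 of 66 probe sets rose and 0 fell (limma, Benjamini-Hochberg adjusted p under 0.05 over all 22215 probe sets), which is 16.7%, beside 5.50% of all probe sets called in either direction, 4.00% called higher and 1.50% called lower. With GC-1, 12 of 66 rose and 0 fell, which is 18.2%, beside 2.80% of all called in either direction, 1.81% called higher and 0.986% called lower. The 11 probe sets that rose with T3 rose with GC-1 too, and CYP24A1 passed with GC-1 alone. Both comparisons use the same 3 vehicle arrays. The probe sets stand for 9 genes with T3 and 10 with GC-1: CYP4F2, CYP4F3 and CYP4F12, then CYP3A4, CYP3A5, CYP3A43 and the CYP3A7-CYP3A51P readthrough, then CYP1A1, CYP19A1 and, with GC-1, CYP24A1. At an unadjusted p under 0.05, 3 P450 probe sets were lower with T3 and 1 with GC-1, beside 10.4% and 8.89% of all. All T3 arrays lay above all vehicle arrays for 17 P450 probe sets and below for 4, beside 12.5% and 12.4% of all probe sets. For GC-1 it was 21 above and 2 below, beside 10.8% and 15.6% of all. The median over the 66 probe sets was -0.02 with T3 and 0.08 with GC-1, against -0.01 and 0.00 over all probe sets. The 54 probe sets called with neither ligand ranged from -0.25 to 0.39 with T3 and from -0.23 to 0.37 with GC-1.

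The GC-1 count rested partly on single arrays. It was 6 without vehicle replicate 1 and 7 without GC-1 replicate 3. The calls over all probe sets fell too, from 2.80% to 1.28% in each of these settings. The T3 count lay between 9 and 13 whichever array was left out, with 2.98% to 6.10% of all probe sets called. With the wide T3 replicates 1 and 2 left out together, 11 P450 probe sets still passed with T3, of which 10 were higher, and 8 of the 11 were among the former calls, beside 8.24% of all probe sets called. That fit holds a single T3 array, which is assumed to vary like the arrays of the other groups. Without T3 replicate 3, CYP46A1 (-0.35, adjusted p = 0.0179) and CYP11B1 (-0.25, adjusted p = 0.0333) passed as lower with T3. CYP46A1 passed as lower with T3 under array weights too (-0.30, adjusted p = 0.0327).

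**Figure D1:**
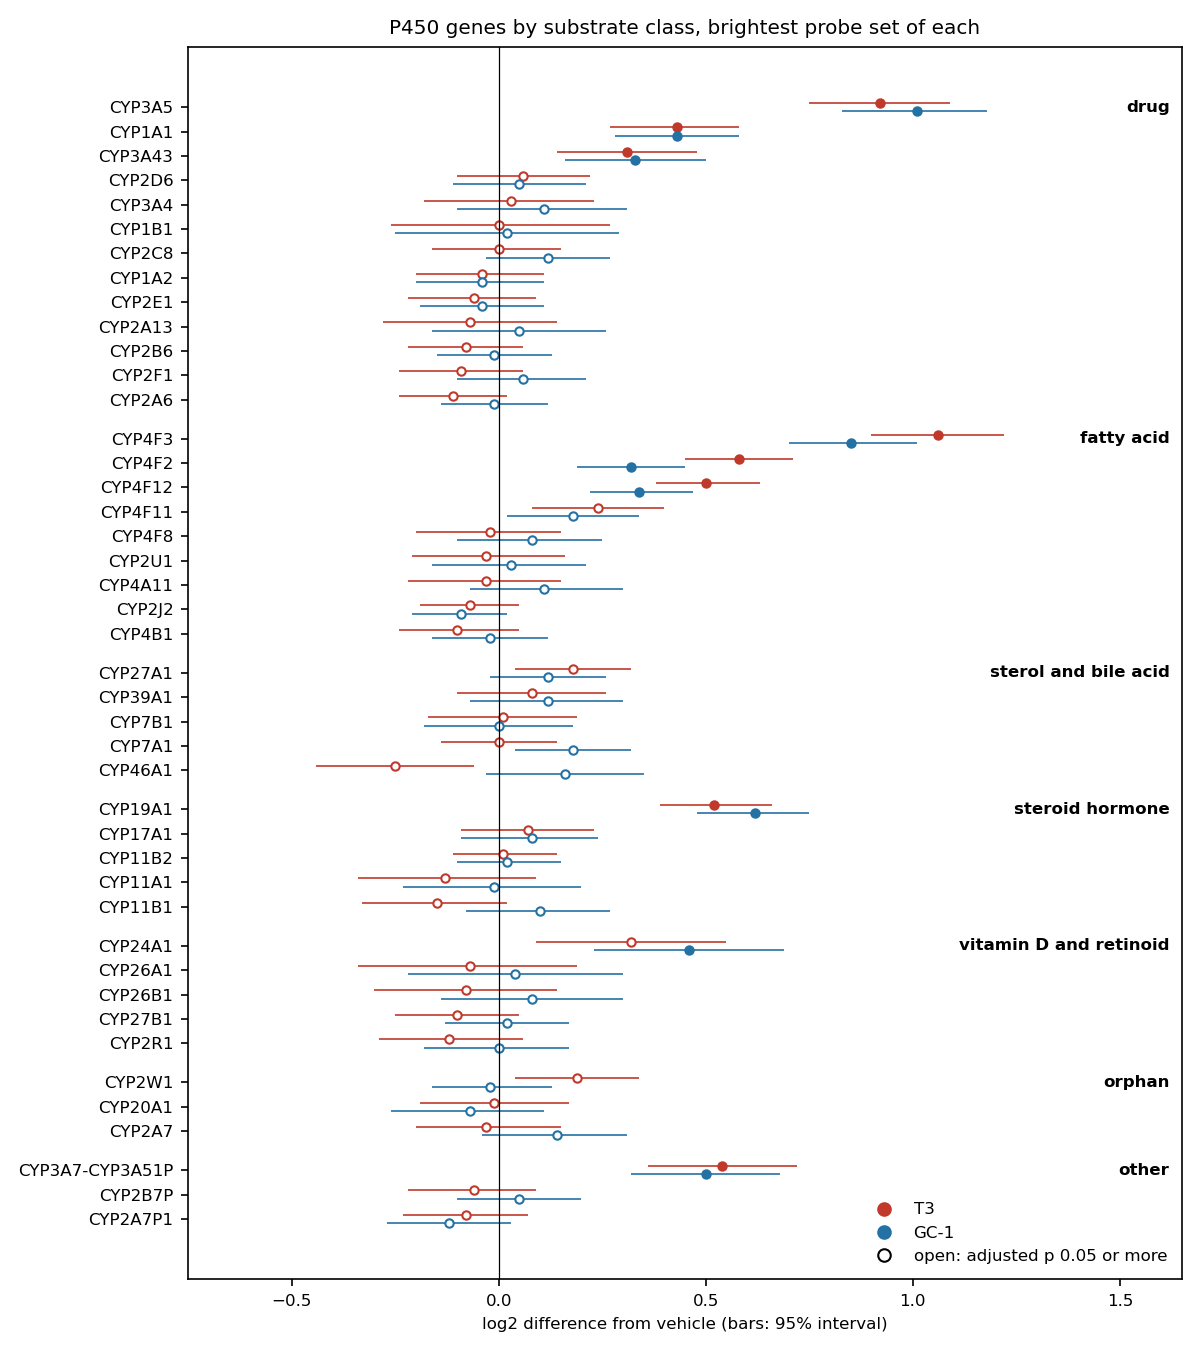
Log2 difference from vehicle, with its 95% confidence interval, for the brightest probe set of each of the 43 P450 genes, by substrate class, for T3 in red and GC-1 in blue, with filled points for those past an adjusted p of 0.05. The filled points all lie above 0. In the sterol and bile acid class 0 of 5 are filled, beside 5.50% of all probe sets called with T3 and 2.80% with GC-1.

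Among the fatty acid P450s 3 of 10 probe sets rose with each ligand, and all 3 were of the CYP4F subfamily. Over all probe sets, 4.00% were called higher with T3 and 1.81% with GC-1. CYP4F3, which hydroxylates leukotriene B4 and long-chain fatty acids at the omega end, gave the largest P450 difference with T3. Its signals were 7.12, 6.98 and 6.96 in the vehicle arrays, 8.10, 8.16 and 7.97 with T3, and 7.76, 7.93 and 7.93 with GC-1. Every ligand array lay above every vehicle array, and every T3 array above every GC-1 array. The difference from vehicle was 1.06 ± 0.07 (SE, n = 3 a group) with T3, adjusted p = 9.54e-06, and 0.85 with GC-1, adjusted p = 7.82e-05.

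CYP4F2 oxidises the side chains of vitamin K and vitamin E as well as fatty acids. Its signals were 7.09, 7.12 and 7.00 with vehicle, 7.63, 7.67 and 7.64 with T3, and 7.37, 7.31 and 7.50 with GC-1. The 3 groups formed 3 separate steps, with GC-1 between the other two. The rise was 1.49-fold with T3 (adjusted p = 1.85e-04) and 1.25-fold with GC-1 (adjusted p = 0.0148). The GC-1 call did not hold in 5 of 17 alternatives, where the highest adjusted p was 0.0798.

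CYP4F12, which oxidises arachidonic acid and some antihistamines, showed the same 3 steps, at 7.96, 8.12 and 8.02 with vehicle, 8.55, 8.46 and 8.61 with T3, and 8.34, 8.39 and 8.41 with GC-1. It rose 1.42-fold with T3 (adjusted p = 4.33e-04) and 1.27-fold with GC-1 (adjusted p = 0.00930), the latter call being lost in 2 of 17 alternatives. CYP4F11, a fatty acid and vitamin K hydroxylase, lay above vehicle on all arrays of both ligands but did not pass, with 0.24 for T3 (adjusted p = 0.0834) and 0.18 for GC-1 (adjusted p = 0.260). CYP4F8, a prostaglandin hydroxylase best known from seminal vesicle, had differences of -0.02 and 0.08. Outside CYP4F, the 2 probe sets of CYP4A11, the main omega hydroxylase of medium-chain fatty acids, differed by -0.06 and -0.03 with T3 and by 0.09 and 0.11 with GC-1. CYP2J2, which makes epoxides of arachidonic acid, differed by -0.07 and -0.09.

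The probe sets of CYP4F2, which can bind near-identical transcripts by its design suffix, and of CYP4F12, whose suffix marks a set shared between transcripts, may take in signal of their close relatives. That of CYP4F3 carries neither suffix.

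**Figure D2:**
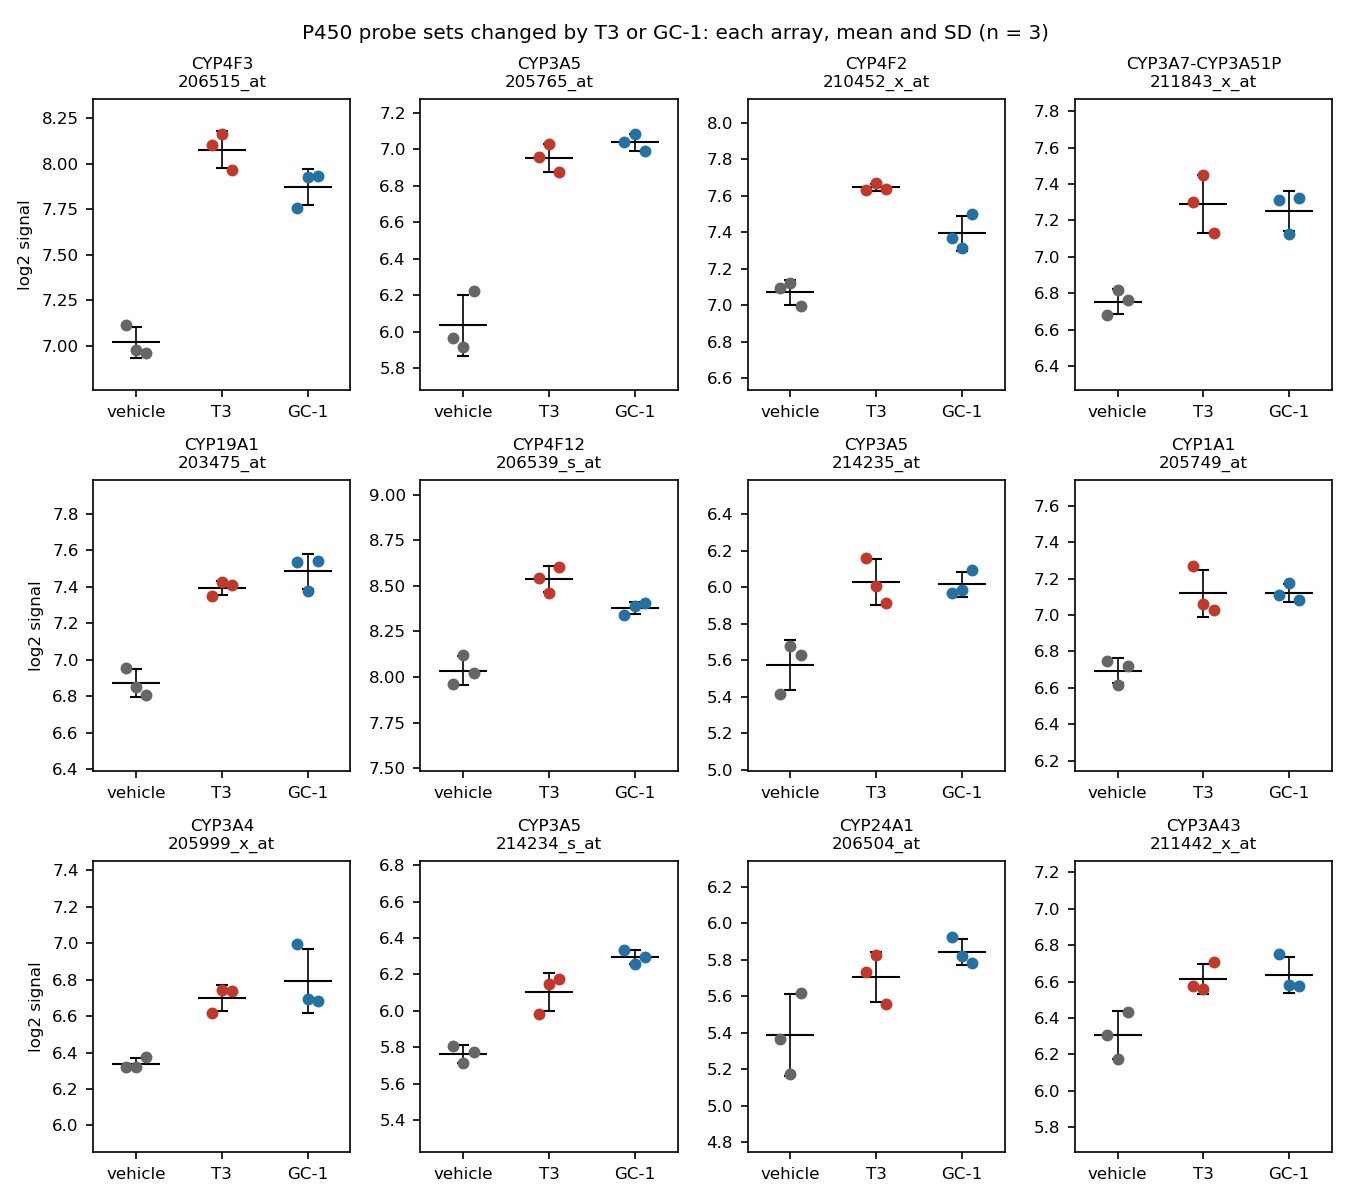
Log2 signal on each of the 9 arrays for the 12 P450 probe sets that passed with either ligand, by group, with the group mean and SD (n = 3) as lines. Every T3 and GC-1 array lies above every vehicle array in each panel but that of CYP24A1, where 1 T3 array, at 5.56, lies below the highest vehicle array, at 5.62.

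Of the drug P450s 6 of 34 probe sets rose with each ligand. Over all probe sets, 4.00% were called higher with T3 and 1.81% with GC-1. Of the 6, 5 were of the CYP3A subfamily, which oxidises a large share of drugs as well as testosterone and cortisol. Counting the readthrough transcript, 6 of 12 CYP3A probe sets rose with each ligand, beside the same shares of all. The median over the 12 was 0.33 with T3 and 0.35 with GC-1. CYP3A5, a CYP3A enzyme of liver, gut and kidney, was higher on all 3 of its probe sets. On its brightest probe set the signals were 5.97, 5.91 and 6.22 with vehicle, 6.96, 7.03 and 6.87 with T3, and 7.04, 7.08 and 6.99 with GC-1. The ligand arrays overlapped each other but lay clear of the vehicle arrays. The differences were 0.92 ± 0.08 (SE) with T3, adjusted p = 4.30e-05, and 1.01 with GC-1, adjusted p = 4.19e-05. A second CYP3A5 probe set gave 0.34 and 0.53. Its suffix marks a set shared between transcripts, so it may take in signal of close relatives. The remaining one, whose call was lost in 2 alternatives with T3 and 3 with GC-1, gave 0.46 and 0.44. The 3 probe sets thus agreed in direction and differed in size, from 1.27-fold to 1.89-fold with T3.

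CYP3A7-CYP3A51P is a readthrough of CYP3A7, the CYP3A enzyme of fetal liver, with a neighbouring pseudogene. It gave 6.68, 6.82 and 6.76 with vehicle, 7.30, 7.45 and 7.13 with T3, and 7.31, 7.13 and 7.32 with GC-1, so that both ligand groups stood above vehicle and overlapped each other. The rise was 1.45-fold with T3 (adjusted p = 0.00332) and 1.41-fold with GC-1 (adjusted p = 0.00860), and it passed in all 17 alternatives for each ligand. Its suffix marks possible binding of near-identical CYP3A transcripts, so it cannot be told from CYP3A7 itself, for which no probe set with a single symbol was used here.

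CYP3A4, the main drug-clearing P450 of adult liver, was not uniform over its 4 probe sets. One rose, from 6.32, 6.32 and 6.38 with vehicle to 6.62, 6.75 and 6.74 with T3 (1.28-fold, adjusted p = 0.0241) and to 7.00, 6.69 and 6.69 with GC-1 (1.37-fold, adjusted p = 0.0123). The T3 call was lost in 7 of 16 alternatives. The brightest CYP3A4 probe set differed by 0.03 with T3 and 0.11 with GC-1 and passed with neither. The remaining ones gave -0.05 and 0.14 with T3 and 0.19 and 0.06 with GC-1. The probe set that rose carries the suffix for possible binding of near-identical transcripts, so it may take in signal of other CYP3A genes. The CYP3A4 probe set without that suffix, at 0.14 with T3 and 0.06 with GC-1, did not pass. Averaged to 1 value a gene, CYP3A4 differed by 0.12 with T3 (adjusted p = 0.254) and 0.20 with GC-1 (adjusted p = 0.0906) and was not called, whereas CYP3A5 differed by 0.57 (adjusted p = 3.40e-05) and 0.66 (adjusted p = 2.75e-05).

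CYP3A43, a CYP3A enzyme of low activity found in liver, prostate and testis, passed on 1 of 4 probe sets, by 0.31 with T3 (adjusted p = 0.0403) and 0.33 with GC-1 (adjusted p = 0.0454). The other 3 gave 0.39, 0.19 and 0.31 with T3 and 0.37, 0.31 and 0.25 with GC-1 and did not pass. The call was lost in 10 of 16 alternatives with T3 and 9 of 16 with GC-1. All 4 probe sets carry the suffix for possible binding of near-identical transcripts.

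The CYP3A genes form a group on chromosome 7 and the CYP4F genes one on chromosome 19. The start regions of 6 of them are shown because each has at least 1 probe set that passed with both ligands. Each window runs from 250 bases before to 50 bases after the RefSeq start on GRCh38.p14, 5′ to 3′ on the gene's strand, with capitals for the letters AGGTCA, the hexamer that nuclear receptors bind, on either strand. CYP3A5 is at chr7:99679947-99680246 on the minus strand, CYP3A7-CYP3A51P at chr7:99735147-99735446 on the minus strand, CYP3A4 at chr7:99784135-99784434 on the minus strand and CYP3A43 at chr7:99827763-99828062 on the plus strand. CYP4F3 is at chr19:15641062-15641361 on the plus strand and CYP4F2 at chr19:15898025-15898324 on the minus strand.
CYP3A5: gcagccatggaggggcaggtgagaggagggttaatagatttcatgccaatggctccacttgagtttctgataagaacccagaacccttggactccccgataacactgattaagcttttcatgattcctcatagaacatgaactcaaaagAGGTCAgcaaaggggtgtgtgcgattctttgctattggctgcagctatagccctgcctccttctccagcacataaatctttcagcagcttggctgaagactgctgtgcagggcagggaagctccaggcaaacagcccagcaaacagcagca
CYP3A7-CYP3A51P: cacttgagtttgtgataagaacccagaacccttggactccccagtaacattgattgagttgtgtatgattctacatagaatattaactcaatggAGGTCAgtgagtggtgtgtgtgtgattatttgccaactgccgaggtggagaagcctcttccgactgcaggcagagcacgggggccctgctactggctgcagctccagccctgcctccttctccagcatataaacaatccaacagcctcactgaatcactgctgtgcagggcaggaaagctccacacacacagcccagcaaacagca
CYP3A4: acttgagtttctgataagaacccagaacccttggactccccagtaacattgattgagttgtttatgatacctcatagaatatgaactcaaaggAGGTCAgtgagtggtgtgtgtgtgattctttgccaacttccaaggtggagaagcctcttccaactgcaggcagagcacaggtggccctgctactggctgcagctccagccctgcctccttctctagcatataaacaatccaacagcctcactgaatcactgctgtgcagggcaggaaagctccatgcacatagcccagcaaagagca
CYP3A43: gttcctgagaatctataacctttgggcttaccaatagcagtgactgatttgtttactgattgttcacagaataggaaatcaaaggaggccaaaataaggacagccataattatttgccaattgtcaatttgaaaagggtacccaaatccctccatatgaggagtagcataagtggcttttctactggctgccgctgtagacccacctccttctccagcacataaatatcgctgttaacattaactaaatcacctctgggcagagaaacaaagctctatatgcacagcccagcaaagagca
CYP4F3: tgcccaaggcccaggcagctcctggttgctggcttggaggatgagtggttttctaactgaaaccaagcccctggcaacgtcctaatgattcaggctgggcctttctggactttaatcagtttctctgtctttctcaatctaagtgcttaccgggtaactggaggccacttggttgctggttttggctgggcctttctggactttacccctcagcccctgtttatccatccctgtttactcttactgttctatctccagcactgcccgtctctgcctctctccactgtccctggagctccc
CYP4F2: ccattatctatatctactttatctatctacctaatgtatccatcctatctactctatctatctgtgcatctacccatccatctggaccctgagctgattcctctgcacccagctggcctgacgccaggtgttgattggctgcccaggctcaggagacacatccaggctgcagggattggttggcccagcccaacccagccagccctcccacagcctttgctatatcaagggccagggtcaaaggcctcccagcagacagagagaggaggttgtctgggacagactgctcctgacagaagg

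The first 3 windows each hold 1 such hexamer, with its first base at -101, -156 and -157 from the start, and the last 3 hold none. The called genes have 14 windows for 8 genes, 7 of them alternative starts of CYP19A1. Of the 14, 5 hold a hexamer (35.7%), namely 2 of CYP19A1 and the 3 CYP3A windows, beside 9 of 40 windows of all P450 members (22.5%) and 4857 of 35116 windows of all genes (13.8%). The direct repeat with 4 bases between hexamers (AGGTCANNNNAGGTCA), the classic thyroid hormone response element, is in 0 of the 40 P450 windows and 7 of all windows (0.0199%). An exact match is so rare that 0 of 40 does not show that such an element is lacking. A search was added after reading the windows, for an everted repeat with 6 bases between (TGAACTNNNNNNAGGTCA), the form known for the pregnane X receptor at CYP3A genes. It found CYP3A4 and CYP3A5 among 3 windows of all 35116. The repeat stood in the windows already read, so these hits were fixed in advance and their rarity is no test. By global alignment the CYP3A7 and CYP3A4 windows are identical at 93.7% of columns, those of CYP3A5 and CYP3A4 at 57.7% and those of CYP4F3 and CYP4F2 at 43.9%. A match describes letters in a window and is not a measured binding site.

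**Figure D3:**
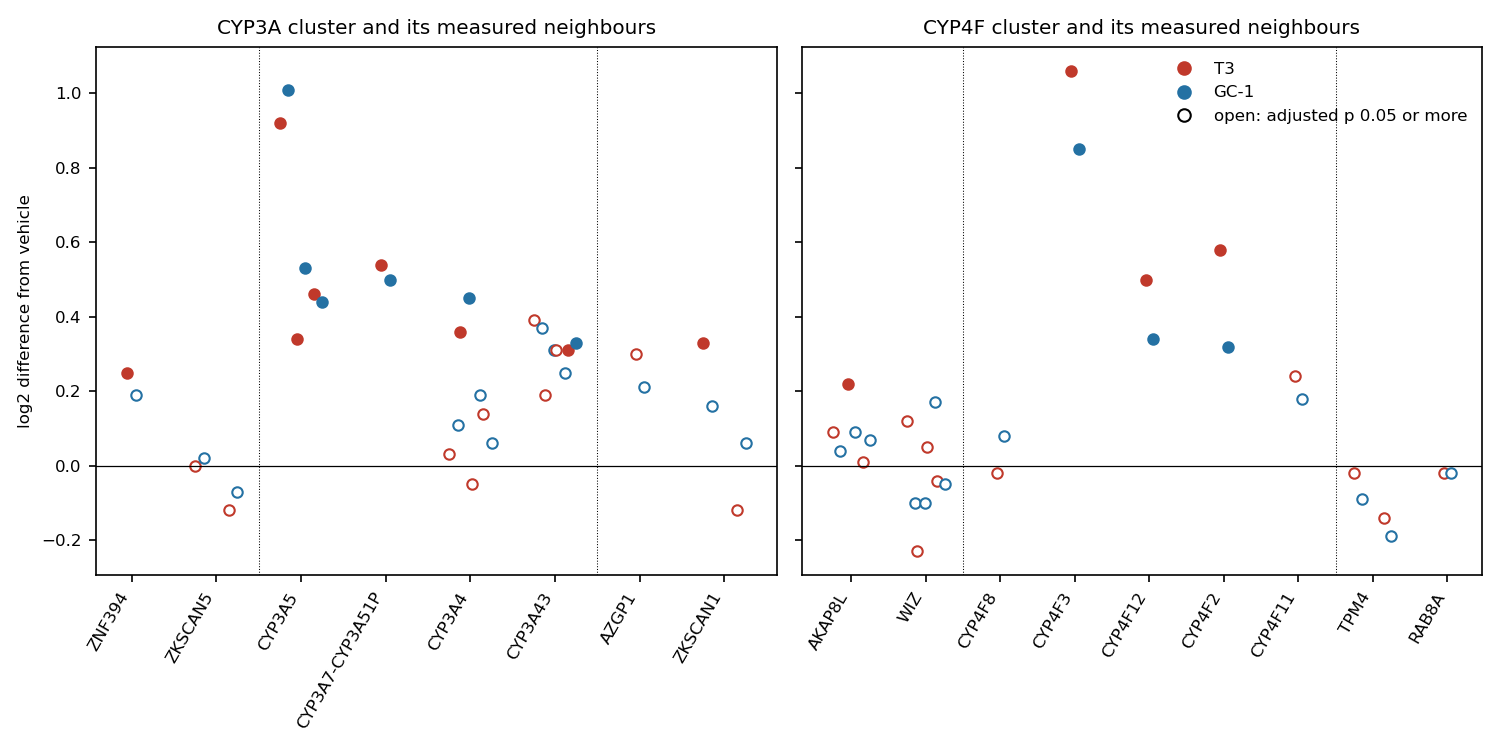
Log2 difference from vehicle for each P450 probe set of the CYP3A and CYP4F genes and of their nearest measured neighbours outside the dotted lines, in gene order, for T3 and GC-1, with filled points for those past an adjusted p of 0.05. The brightest CYP3A5 probe set lies above all other CYP3A probe sets with both ligands. CYP4F3, CYP4F12 and CYP4F2 stand above CYP4F8 and CYP4F11.

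On chromosome 7 the gene order is CYP3A5, CYP3A7-CYP3A51P, CYP3A7, CYP3A4 and CYP3A43. On chromosome 19 it is CYP4F22, CYP4F8, CYP4F3, CYP4F12, then 5 other coding genes, then CYP4F2 and CYP4F11. The nearest measured genes outside both groups, chosen after the values were seen, passed on 0 of 16 probe sets with GC-1 and on 3 of 16 with T3, beside 2.80% and 5.50% of all probe sets. With T3 the zinc finger gene ZKSCAN1 differed by 0.33 on 1 of 2 probe sets (adjusted p = 0.00716), ZNF394 by 0.25 (adjusted p = 0.0352) and AKAP8L by 0.22 on 1 of 3 probe sets (adjusted p = 0.0431). Each of the 3 calls was lost in 2 or more alternatives.

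CYP1A1, which oxidises aromatic hydrocarbons and is the classic target of the aryl hydrocarbon receptor, rose from 6.75, 6.62 and 6.72 with vehicle to 7.27, 7.06 and 7.03 with T3 and to 7.11, 7.18 and 7.08 with GC-1. The groups with ligand did not overlap vehicle. The rise was 1.34-fold with T3 (adjusted p = 0.00405) and 1.35-fold with GC-1 (adjusted p = 0.00704), and the T3 call was lost when the interquartile range of the arrays was a covariate (adjusted p = 0.0526). CYP1A2, its close relative, known for caffeine clearance, differed by -0.04 and -0.06 on 2 probe sets with T3 and by -0.04 and 0.14 with GC-1. CYP1B1, a mainly extrahepatic relative, did not pass on any of 4 probe sets, which ranged from -0.11 to 0.23 with T3 and from -0.11 to 0.11 with GC-1. One of the 4 passed with T3 under array weights (0.28, adjusted p = 0.0257) and without T3 replicate 3 (0.30, adjusted p = 0.0222).

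The rest of the drug class did not pass. The 5 probe sets of CYP2A6, which clears nicotine, and CYP2A13, its airway relative, ranged from -0.14 to -0.07 with T3 and from -0.04 to 0.06 with GC-1. The 4 probe sets of CYP2E1, which oxidises ethanol and paracetamol, ranged from -0.06 to 0.07 and from -0.04 to 0.17. CYP2B6, CYP2C8 and CYP2D6 also had no call, and the dimmer of 2 probe sets of CYP2D6, which clears many antidepressants, differed by -0.22 with T3 and -0.23 with GC-1.

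In the sterol and bile acid class 0 of 5 probe sets passed with either ligand, beside 5.50% of all called with T3 and 2.80% with GC-1. Over only 5 probe sets, 0 calls does not set the class apart from those shares. The probe sets of CYP7A1, CYP7B1, CYP39A1 and CYP46A1 lay below the lower quartile of all. CYP7A1, the rate-limiting enzyme of bile acid synthesis, was dim, at 4.19, 4.26 and 4.19 with vehicle, 4.27, 4.23 and 4.15 with T3, and 4.41, 4.50 and 4.27 with GC-1. The T3 arrays overlapped vehicle and the GC-1 arrays lay just above it. The differences were 0.00 with T3 (adjusted p = 0.995) and 0.18 with GC-1 (adjusted p = 0.195). At this signal a change in CYP7A1 cannot be said to be absent, since differences of dim probe sets are compressed.

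CYP27A1, a bright mitochondrial enzyme of the acidic bile acid pathway, gave 10.17, 10.17 and 10.04 with vehicle, 10.29, 10.21 and 10.42 with T3, and 10.27, 10.26 and 10.20 with GC-1. All ligand arrays lay above all vehicle arrays, but 0.18 (adjusted p = 0.141) and 0.12 (adjusted p = 0.408) did not pass. Its T3 difference passed in 2 alternatives, at 0.18 (adjusted p = 0.0406) with a trended and robust prior and at 0.30 (adjusted p = 0.0438) without T3 replicates 1 and 2. CYP7B1 and CYP39A1, which hydroxylate oxysterols, differed by 0.01 and 0.08 with T3 and by 0.00 and 0.12 with GC-1. CYP8B1, which sets the share of cholic acid, and CYP51A1, a step of cholesterol synthesis, were not analysed here.

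Of the steroid hormone P450s 1 of 5 rose with each ligand. Over all probe sets, 4.00% were called higher with T3 and 1.81% with GC-1. CYP19A1, aromatase, which turns androgens into oestrogens, gave 6.95, 6.85 and 6.80 with vehicle, 7.35, 7.42 and 7.41 with T3, and 7.54, 7.38 and 7.54 with GC-1. Both ligand groups stood clear of vehicle and overlapped each other. The rise was 1.44-fold with T3 (adjusted p = 5.27e-04) and 1.53-fold with GC-1 (adjusted p = 2.29e-04) and passed in all 18 alternatives run for it. CYP11A1, which cuts the side chain of cholesterol, and CYP17A1, on the way to androgens, differed by -0.13 and 0.07 with T3 and by -0.01 and 0.08 with GC-1. CYP11B1, the last step to cortisol, differed by -0.15 and 0.10.

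Among the vitamin D and retinoid P450s, CYP24A1, which breaks down active vitamin D, gave 5.37, 5.17 and 5.62 with vehicle, 5.73, 5.83 and 5.56 with T3, and 5.93, 5.82 and 5.78 with GC-1. The GC-1 arrays lay above vehicle, while 1 T3 array overlapped it. This probe set was dim, with a mean of 5.64, below the lower quartile of all probe sets, 5.84. The difference was 0.46 ± 0.10 (SE) with GC-1 (adjusted p = 0.0429), a call lost in 9 of 17 alternatives, and 0.32 with T3 (adjusted p = 0.109), which became 0.44 (adjusted p = 0.0323) without vehicle replicate 3. The difference between the ligands was 0.14, with a 95% interval from -0.09 to 0.37, so the single call does not set GC-1 apart from T3. CYP26A1, which clears retinoic acid, differed by -0.07 and 0.04, CYP27B1, which makes active vitamin D, by -0.10 and 0.02, and CYP2R1, a vitamin D 25-hydroxylase, by -0.12 and 0.00. The orphan enzymes CYP20A1, CYP2A7 and CYP2W1 had no call, and CYP2W1 lay above vehicle on all T3 arrays, by 0.19 (adjusted p = 0.130), with a GC-1 difference of -0.02. The pseudogene probe sets of CYP2B7P and CYP2A7P1 ranged from -0.09 to -0.06 with T3 and from -0.12 to 0.05 with GC-1.

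GC-1 was set against T3 directly, at the same 10 nM and 24 h, for 66 probe sets. At an adjusted p under 0.05, 0 of 66 P450 probe sets differed, beside 0 of all 22215. At an unadjusted p under 0.05 it was 13 of 66 (19.7%), 9 with GC-1 higher and 4 with T3 higher, beside 14.1% of all. All GC-1 arrays lay above all T3 arrays for 10 P450 probe sets and below for 4, beside 7.90% and 10.1% of all. The 95% interval of the GC-1 minus T3 difference lay within 1.5-fold for 65 of 66 P450 probe sets and for all 12 that were called against vehicle. A difference that misses the threshold does not show that the compounds act alike. The interval gives the size of signal difference that the spread between arrays leaves possible. Since signals of dim probe sets are compressed, it does not bound the difference in RNA for those.

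All 3 called CYP4F probe sets were lower with GC-1 than with T3, on every array. The difference was -0.25 for CYP4F2 (95% interval -0.38 to -0.12, adjusted p = 0.192), -0.20 for CYP4F3 (-0.36 to -0.04, adjusted p = 0.268) and -0.16 for CYP4F12 (-0.29 to -0.03, adjusted p = 0.275). The 12 CYP3A probe sets were mixed in sign, with 7 higher and 5 lower with GC-1, from -0.09 to 0.24. The brightest CYP3A5 probe set differed by 0.09 (-0.09 to 0.26), and the others by 0.19 (0.06 to 0.32, adjusted p = 0.241) and -0.01 (-0.19 to 0.17). CYP3A7-CYP3A51P differed by -0.04 (-0.22 to 0.14) and CYP1A1 by 0.00 (-0.15 to 0.15). CYP19A1 differed by 0.09 (-0.04 to 0.23).

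The widest ligand difference of the family was that of CYP46A1, which turns cholesterol into 24-hydroxycholesterol and is best known from neurons. Its signals were 5.90, 5.86 and 5.75 with vehicle, 5.58, 5.40 and 5.79 with T3, and 6.03, 6.02 and 5.95 with GC-1. The T3 arrays were mostly below vehicle with 1 overlapping, and the GC-1 arrays were all above. The probe set was dim, with a mean of 5.81, below the lower quartile of all probe sets, 5.84. The differences from vehicle, -0.25 with T3 (adjusted p = 0.127) and 0.16 with GC-1 (adjusted p = 0.404), did not pass. GC-1 minus T3 was 0.41 (95% interval 0.22 to 0.60, adjusted p = 0.176). Without T3 replicate 3 it was 0.51 (adjusted p = 0.0325). CYP11B1, at 0.35 (adjusted p = 0.0366), and 1 CYP2E1 probe set, at 0.30 (adjusted p = 0.0442), each also below that quartile, passed there as well. In that setting 338 of all probe sets passed, which is 1.52%, beside the 3 P450 probe sets, and the 2 T3 arrays left are those with the wide interquartile range, whose part in these differences was not tested.

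**Figure D4:**
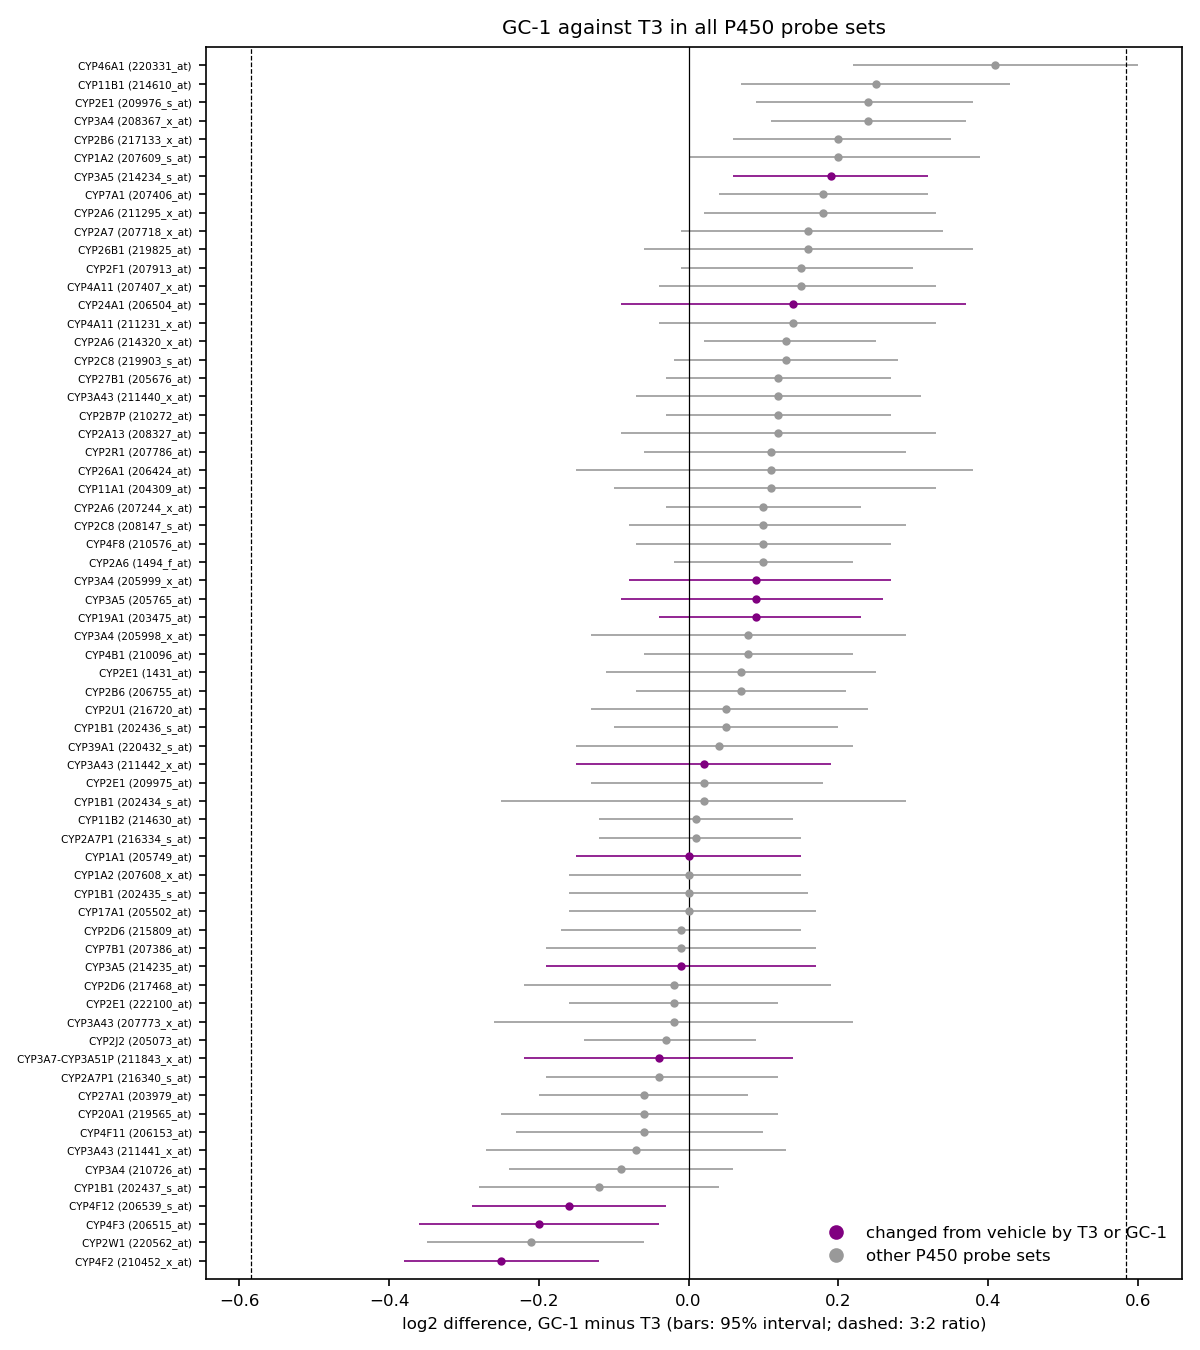
GC-1 minus T3 log2 difference with its 95% confidence interval for all 66 P450 probe sets, purple where the probe set passed against vehicle, with dashed lines at a ratio of 1.5 either way. The 3 purple CYP4F sets lie below 0, and the interval of CYP46A1, from 0.22 to 0.60, is the one of the 66 that crosses a dashed line.

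The genes that supply P450s with electrons and heme or control their transcription were read from a list of 39, of which 30 were measured. With T3, 8 of the 30 rose and 0 fell, and with GC-1 3 rose and 0 fell, on at least 1 probe set each. By probe sets it was 11 and 3 of 57, beside the 4.00% and 1.81% of all called higher. The medians over their 57 probe sets were 0.06 and 0.04. Of the electron donors, POR, the reductase of the microsomal P450s, rose by 0.29 with T3 (adjusted p = 0.0220), a call lost in 3 of 18 alternatives, and differed by 0.15 with GC-1 (adjusted p = 0.271). CYB5R3, which reduces cytochrome b5, rose with both, by 0.29 (adjusted p = 0.00618) and 0.25 (adjusted p = 0.0253). CYB5A, cytochrome b5 itself, rose with T3 on 3 of 4 probe sets, by 0.21 to 0.25, and those 3 differed by 0.14 to 0.17 with GC-1 without passing. All 3 passed with GC-1 in at least 2 alternatives, with adjusted p down to 0.00369. For 2 of the 3 the T3 call was lost in 8 of 17 alternatives. None of the ligand differences in this list passed in the direct comparison, and the GC-1 minus T3 difference of POR was -0.14 (95% interval -0.28 to 0.00).

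For heme, ALAD, the step that joins aminolevulinic acid into porphobilinogen, rose on its brighter probe set by 0.37 with T3 (adjusted p = 0.00265) and 0.32 with GC-1 (adjusted p = 0.0108). Its dimmer probe set passed with T3 at 0.28 (adjusted p = 0.0233), a call lost in 8 of 17 alternatives. With GC-1 the dimmer one differed by 0.17 and did not pass (adjusted p = 0.198). BLVRB, a biliverdin reductase, rose by 0.29 with T3 alone past the threshold (adjusted p = 0.0150), with 0.11 for GC-1. ALAS1, the rate-limiting step of heme synthesis in liver, differed by 0.15 (adjusted p = 0.0924) and 0.13, and HMOX1, which breaks heme down, by 0.06 and 0.02. Of the regulators, NR0B2, the small partner receptor that damps bile acid synthesis, rose by 0.34 with both ligands (adjusted p = 0.00797 and 0.0133). The GC-1 calls of CYB5R3, ALAD and NR0B2 were lost in 7 of 17, 4 of 18 and 4 of 18 alternatives. AHR, the receptor that induces CYP1A1, passed with T3 at 0.24 (adjusted p = 0.0495), a call lost in 14 of 18 alternatives, and differed by 0.18 with GC-1 (adjusted p = 0.167). VDR, the vitamin D receptor that induces CYP24A1, passed with T3 on 1 of 4 probe sets, by 0.27 (adjusted p = 0.0451), and lost that call in 12 of 16 alternatives. That probe set was the dimmest of the 4, with a mean of 5.20, and the others differed by -0.04, 0.06 and -0.09 with T3. Averaged to 1 value a gene, VDR differed by 0.05 with T3 (adjusted p = 0.514). NR1I3, the constitutive androstane receptor behind CYP2B6, differed by -0.10 and -0.01, and NR1I2 and NR1H4 were not analysed here.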

How the data were processed

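Total RNA of 9 HepG2 samples was read on Affymetrix 3' expression arrays. The deposited values are log2 signals, made by the authors with RMA, as named without a version in the submitters' processing notes. No source gives the base of the logarithm, so base 2 was taken from the range of the values, and fold changes depend on it. Signals of dim probe sets are compressed by such processing. Scanner files were not used here.

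Of the probe sets 62 array controls were left out, and 8 P450 probe sets that carry several symbols were not used. One linear model of the 3 group means was fitted to all 9 arrays and 22215 probe sets with limma 3.58.1 in R 4.3.3 (lmFit, eBayes), with Benjamini-Hochberg adjustment over all and a threshold of 0.05. It was tested on simulated data. With 3 arrays against 3, an exact two-sided permutation test of a single value cannot go below 0.1.

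Named were all called P450 probe sets, the 3 genes of each class with the smallest p, and a fixed list of well-known members. The members, classes and lists were chosen with earlier results of these data known. Genes stand as their brightest probe set where 1 is named. Alternatives covered normalization, dim probe sets, the prior, array weights, samples fitted, replicate block, array spread, arrays left out, probe set suffix and 1 mean a gene. Promoters came from RefSeq on GRCh38.p14.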

Additional observations from a re-analysis of the deposited data

How the results depend on the processing

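No called P450 value reversed in any alternative. Of 23 called P450 values (a probe set with a ligand) 13 passed in every alternative run for them. The other 10 were lost in at least 1. For GC-1 against vehicle, leaving out T3 replicates 1 and 2 together gave the same calls as fitting only the arrays compared. A single T3 array adds nothing to the spread, so the GC-1 alternatives count that fit again. The count with T3, 11, ranged from 9 to 13 with 1 array left out, and that with GC-1, 12, from 6 to 13. Among the 14 P450 probe sets brighter than the median of all, 5 passed with T3 and 5 with GC-1, beside 16.0% and 11.1% of all such probe sets. Without the probe sets that carry a suffix of the kinds given for CYP4F2 and CYP4F12, which leaves 36, it was 5 with T3 and 6 with GC-1, beside 4.14% and 2.01%. Of the 36, 1 probe set, of CYP2A6, carries another suffix. These smaller counts are over fewer probe sets. With the replicate number as a block, the counts were 10 with T3, 9 with GC-1 and 0 for GC-1 against T3. The labels do not say that a number marks a shared culture, and of 9 same-numbered pairs 0 had deviations correlated above 0.1 (range -0.26 to 0.08), so the numbers were not taken as pairs. For GC-1 against T3 the count was 0, and 0 to 3 with 1 array left out. Over all probe sets the block gave 773 calls with T3, against 1222, and 347 with GC-1, against 622. With array weights the GC-1 calls over all probe sets were 1435. The interquartile range as a covariate gave 12 P450 calls with T3, 11 higher and 1 lower, and 2084 calls over all probe sets, 932 higher and 1152 lower, against 1222, 888 higher and 334 lower. The cause of these shifts was not tested.

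With 3 arrays a group, the median 95% interval of a P450 ligand difference was 0.160 wide to each side. Signal over background was not given for single probe sets, so dim P450s carry no statement that they are absent.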
